A study of Mus musculus with 16 samples.

Results

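miR-221 and miR-222 were followed in primary mouse tracheal epithelial cell (MTEC) cultures through 3 small RNAs: mmu-miR-221-3p, mmu-miR-221-5p and mmu-miR-222-3p, written below without the species prefix. These are the rows of the deposited table that carry those names, taken because the pair is known to target 2 cell cycle inhibitors, p27 and p57; the rule uses their names and no measured value. They are 3 of 677 miRNA rows and 3 of the 1264 small RNA rows used, and all 3 had a value in all 16 libraries. The cultures came from global p73 knockout mice (p73 KO) and from wild-type mice (WT). They were grown at an air-liquid interface, where a layer of tracheal cells on a membrane is exposed to air on its upper side and forms multiciliated cells. Cells were taken at days 0, 4, 7 and 14 after exposure to air, with 2 libraries (replicates 2 and 3) for each genotype and day. All 8 groups share the culture method and carry no other allele or agent in the labels; no source used here names the mouse strain or age, and p73 itself cannot be checked in small RNA data.

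The transcription factor p73, a relative of p53, is needed by the multiciliated cells of the airway. miR-221 and miR-222 are made from neighbouring hairpins of 1 cluster on the X chromosome. Each hairpin gives an arm from its 3′ side and an arm from its 5′ side, and here as elsewhere the 3′ arms are the abundant ones. The 3′ arms have the same seed, the short stretch near the 5′ end through which a miRNA recognises its targets. Among the best known targets are Cdkn1b, which encodes p27, and Cdkn1c, which encodes p57; both proteins hold cells out of the cell cycle. The cluster is known for high levels in dividing cells and in many epithelial tumours, and it is also abundant in endothelium.

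The 3 mature sequences, from RefSeq (GRCm38.p6, the assembly behind mm10), are shown 5′ to 3′ with the seed (bases 2 to 8) in capitals, because the seed is what joins miR-221-3p with miR-222-3p and sets miR-221-5p apart.
miR-221-3p: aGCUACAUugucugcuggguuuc
miR-222-3p: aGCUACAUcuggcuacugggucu
miR-221-5p: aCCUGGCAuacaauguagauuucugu
The first 8 bases of miR-221-3p and miR-222-3p were identical, and the same base stood at 11 of their 23 positions when both were counted from the 5′ end. The seed GCUACAU occurred in 3 mature mouse miRNAs of the RefSeq table, these 2 and miR-1928, for which no value was analysed here. The seed of miR-221-5p occurred in no other miRNA of that table.

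The hairpins show where these reads come from; capitals mark the windows counted in the deposited table.
Mir221: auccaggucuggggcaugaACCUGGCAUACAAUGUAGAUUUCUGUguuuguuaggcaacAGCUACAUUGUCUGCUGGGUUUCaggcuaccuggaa
Mir222: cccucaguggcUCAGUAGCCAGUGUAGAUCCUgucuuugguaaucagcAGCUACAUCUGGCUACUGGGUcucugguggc
Mir221 lies at chrX:19146294-19146388 and Mir222 at chrX:19146893-19146971 in mm10, both on the minus strand, with 504 bases between them. miR-221-3p occupies chrX:19146307-19146329 and miR-221-5p chrX:19146344-19146369. miR-222-3p occupies chrX:19146901-19146923 in RefSeq, whereas the deposited window, chrX:19146903-19146923, is 21 bases long. No other gene of the GENCODE annotation overlaps the hairpins, and the nearest on either side are Gm14636 at 10009 bases and Gm5383 at 203065 bases.

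The deposited values are reads divided by a size factor within each day, so a value is a normalised read number. A read spans a whole miRNA (windows of 21 to 26 bases), so values were not divided by length. The libraries held 197497 to 1777271 reads, the shallowest being the WT libraries of day 0. miRNAs made up 92.5 to 97.2% of the values of a library. One of them, miR-92b-3p, held 1.11 to 2.3% of a library at day 0 and 47.3 to 55.1% at day 14, so a share of all reads and a normalised value move differently over time. Of the day 4 libraries, KO replicate 2 had the lowest miR-92b-3p share, 11.7%, against 24.9 to 32.2% in the other 3. Levels compared across days below are day-aligned: every value of a day was moved by 1 common factor, so that small RNAs were centred alike on each day.

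miR-221-3p and miR-222-3p were well measured and miR-221-5p was scarce. miR-221-3p was counted with 199 to 996 reads a library and miR-222-3p with 157 to 1451. miR-221-5p had 8 to 96 reads. Ordered by level among the miRNAs of a library, miR-222-3p held places 37 to 57, miR-221-3p places 39 to 54 and miR-221-5p places 96 to 165. The 4th arm of the cluster, miR-222-5p, had 1 to 10 reads at days 0 and 4 and no listed value at days 7 and 14, where low rows of the table are blank; it was in no test.

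**Figure D1:**
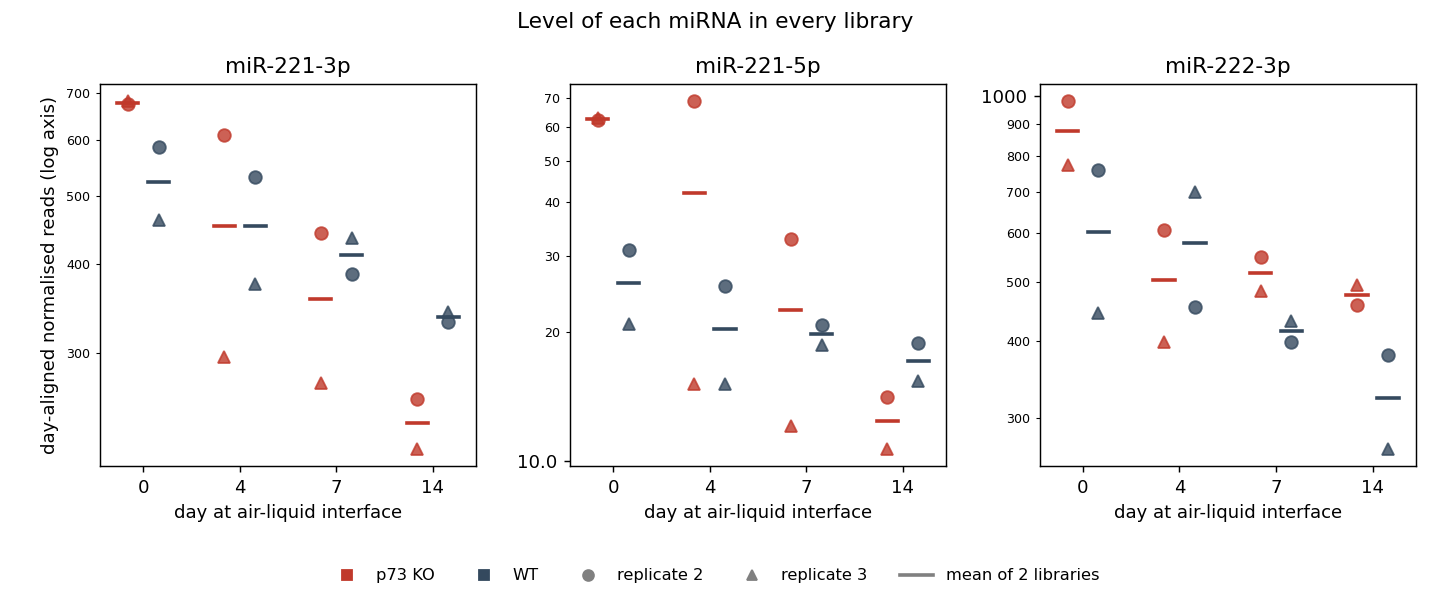
Day-aligned normalised reads (log axis, 1 scale per panel) of miR-221-3p, miR-221-5p and miR-222-3p in each of 16 libraries at days 0, 4, 7 and 14, with p73 KO left of WT; circles are replicate 2, triangles replicate 3 and lines the mean of 2. All 3 miRNAs stand highest in the KO libraries of day 0, apart from miR-221-5p in KO replicate 2 of day 4, and miR-221-3p stands lowest in the KO libraries of day 14.

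Both arms of miR-221 fell in the KO cultures between days 0 and 14. In the main limma fit, which has no replicate block, no other comparison of the 3 miRNAs passed an adjusted p of 0.05. Further ones passed under other scalings and settings, given below. With the replicate number as a block within genotype, 3 further KO comparisons passed, given beside their results. miR-221-3p had 674 and 681 day-aligned reads (replicate 2 first) in the KO libraries of day 0. It had 610 and 296 at day 4, 443 and 272 at day 7, then 258 and 219 by day 14. The day 14 libraries were below every earlier KO library, and the replicates differed most at day 4. At day 14 the mean was 239 ± 27.6, against 677 ± 4.99 at day 0 (SD, n = 2 each). limma, fitted across all small RNAs, gave a log2 change of -1.50 (SE 0.35, 95% interval -2.25 to -0.76, adjusted p = 0.00622), a level 0.352 times that of day 0.

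miR-221-5p, the arm with its own seed, had 62.2 and 62.7 day-aligned reads in the KO libraries of day 0. It had 68.8 and 15.1 at day 4, 32.9 and 12.1 at day 7, then 14.1 and 10.7 by day 14. KO replicate 2 of day 4 was as high as the day 0 libraries and replicate 3 was near the day 14 libraries. At day 14 the mean was 12.4 ± 2.42, against 62.5 ± 0.332 at day 0 (SD, n = 2 each), from 11 and 12 reads at day 14 and 92 and 70 reads at day 0. The log2 change was -2.26 (SE 0.60, 95% interval -3.55 to -0.97, limma adjusted p = 0.013). Only 5 of the 279 small RNAs tested had a lower log2 change in KO cultures between these days. For miR-221-3p that number was 19. A small RNA was tested only if it reached a minimum value at day 14 as well as at day 0. At day 14, 304 small RNAs had a listed value, against 1229 at day 0. Those that fell furthest may therefore be missing, so both ranks hold only among the 279 tested.

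miR-222-3p had 982 and 773 day-aligned reads in the KO libraries of day 0. It had 607 and 400 at day 4, 549 and 483 at day 7, then 459 and 494 by day 14. The day 0 libraries were above all later KO libraries, and days 4, 7 and 14 overlapped one another. At day 14 the mean was 476 ± 24.5, against 877 ± 147 at day 0 (SD, n = 2 each). The log2 change of -0.87 (SE 0.34, 95% interval -1.59 to -0.15) did not pass (limma adjusted p = 0.0639), but it passed with the replicate block (limma adjusted p = 0.0449).

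So 2 of the 3 miRNAs were called between days 14 and 0 in KO cultures, both lower, where 29.4% of the 279 small RNAs tested were called (37 higher and 45 lower, with a median log2 change over all tested of 0.07). The comparisons of days 4, 7 and 14 with day 0 share the day 0 libraries. Without any 1 of the 4 KO libraries of days 0 and 14, the 82 calls became 26 to 54, with the fewest when replicate 3 of day 14 was left out. Without KO replicate 3 of day 14, neither miR-221-3p (log2 -1.39, adjusted p = 0.0618) nor miR-221-5p (log2 -2.07, adjusted p = 0.0873) was called by limma. miR-221-5p was also not called without KO replicate 2 of day 0 (adjusted p = 0.0551 in limma) or without KO replicate 3 of day 0 (adjusted p = 0.0639 in limma). In these fits the library left alone in its group is assumed to vary like the other groups.

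At earlier days the means of the 3 miRNAs in KO cultures were also below those of day 0, without passing. At day 4 the log2 changes were -0.67 for miR-221-3p, -0.92 for miR-221-5p and -0.82 for miR-222-3p, with limma adjusted p of 0.348, 0.442 and 0.24; 3.53% of small RNAs were called. At day 7 they were -0.96, -1.59 and -0.76 in the same order, with limma adjusted p of 0.101, 0.112 and 0.175; 9.09% were called. With the replicate block, miR-221-3p (limma adjusted p = 0.0355) and miR-221-5p (0.0312) passed at day 7, and the calls over all small RNAs numbered 51, against 27 without it. No KO library of day 7 reached the day 0 libraries for any of the 3, which held for 33.3% of all small RNAs tested.

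In WT cultures none of the 3 was called at any day in the main limma fit. miR-221-3p had 586 and 463 day-aligned reads at the start, 532 and 375 at day 4, 388 and 436 at day 7, then 332 and 343 by day 14. miR-221-5p had 31 and 20.8 at the start, 25.5 and 15.1 at day 4, 20.7 and 18.6 at day 7, then 18.8 and 15.3 by day 14. miR-222-3p had 760 and 444 at the start, 455 and 699 at day 4, 400 and 432 at day 7, then 381 and 268 by day 14. For all 3, the day 14 libraries lay below the day 0 libraries without overlap, a position shared by 26.9% of the small RNAs tested in WT; in KO cultures, where the 3 also lay below, that share was 33.7%. The WT day 4 libraries overlapped those of day 0.

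Between days 14 and 0 in WT, miR-221-3p averaged 337 ± 7.45 at day 14 and 524 ± 87 at day 0 (SD, n = 2 each), a log2 change of -0.62 (95% interval -1.37 to 0.12, limma adjusted p = 0.259). miR-221-5p averaged 17.1 ± 2.47 at day 14 and 25.9 ± 7.21 at day 0, a log2 change of -0.55 (95% interval -1.85 to 0.74, limma adjusted p = 0.576). miR-222-3p averaged 324 ± 80 at day 14 and 602 ± 223 at day 0, a log2 change of -0.86 (95% interval -1.58 to -0.15, limma adjusted p = 0.0987). The call rate over all small RNAs was 16.5% at day 14 (24 higher and 22 lower, median log2 change -0.06), 8.08% at day 7 and 2.24% at day 4 (7 calls, and 13 with the replicate block). At day 4 the log2 changes lay between -0.36 and -0.04, and at day 7 between -0.48 and -0.34. Without WT replicate 3 of day 0, miR-222-3p was called at day 14 (log2 -1.25, limma adjusted p = 0.033).

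**Figure D2:**
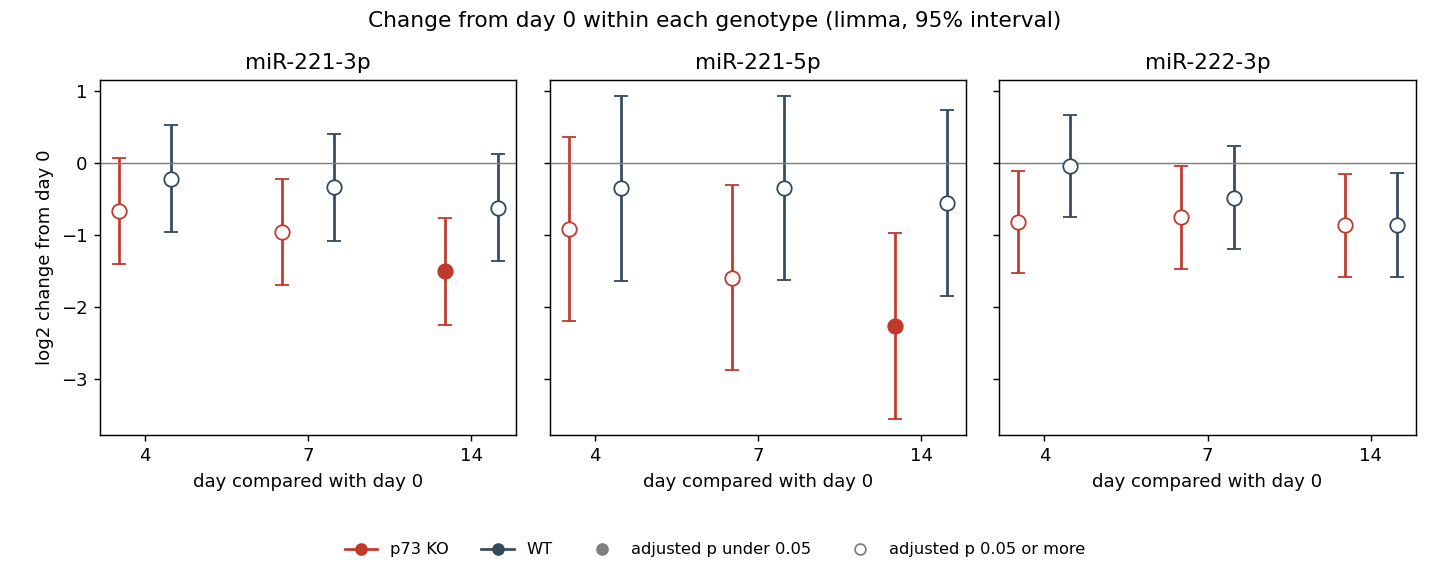
log2 change of the day-aligned level at days 4, 7 and 14 against day 0 in p73 KO (left of each pair) and WT cultures, with the 95% interval of limma (n = 2 libraries per group); filled points passed an adjusted p of 0.05. The 2 filled points are miR-221-3p (-1.50) and miR-221-5p (-2.26) in KO at day 14; for miR-222-3p the KO and WT points at day 14 are -0.87 and -0.86.

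Whether the time course differed between genotypes was tested directly, as the KO change minus the WT change. The difference at day 14 was -0.88 (95% interval -1.93 to 0.17, limma adjusted p = 0.378) for miR-221-3p and -1.71 (95% interval -3.53 to 0.12, limma adjusted p = 0.295) for miR-221-5p. Neither passed, so the calls in KO and not in WT do not show that the arms of miR-221 changed by different amounts. For miR-222-3p the difference was -0.01, with a 95% interval of -1.02 to 1.01 that spans a change of either sign (limma adjusted p = 0.998). At day 4 the differences were between -0.78 and -0.45 and at day 7 between -1.24 and -0.27, none called. limma called 0% of the small RNAs tested in each of these 3 comparisons, with 4, 15 and 52 at an unadjusted p under 0.05 at days 4, 7 and 14. edgeR called 0 on each day, as did limma-voom, while DESeq2 called 0, 0 and 6, none of them a miR-221 or miR-222 row. With the replicate block limma called 14 at day 14, again none of the 3.

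Steps between successive later days were small. From day 4 to day 7 the log2 changes were -0.29, -0.67 and 0.07 in KO cultures, for miR-221-3p, miR-221-5p and miR-222-3p. In WT cultures they were -0.12, 0.00 and -0.44 in that order. From day 7 to day 14 they were -0.54, -0.67 and -0.11 in KO cultures and -0.29, -0.20 and -0.38 in WT cultures. No step of the 3 was called by limma. The rate over all small RNAs was 0.318% for WT between days 7 and 4, and 0% for the other 3 steps. In these 3 steps limma had 7 (KO, day 7), 11 (KO, day 14) and 14 (WT, day 14) small RNAs at an unadjusted p under 0.05. edgeR called 0, 0 and 1 in the same order, DESeq2 1, 0 and 1, and limma-voom 0, 0 and 1.

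KO and WT cultures of the same day did not differ past the threshold for any of the 3 miRNAs. At day 0 all 3 stood higher in both KO libraries than in both WT libraries, as 18.7% of the small RNAs tested did; 34.8% were separated in either direction. In deposited normalised reads, miR-221-3p had 589 and 595 in KO and 511 and 404 in WT, and miR-222-3p had 857 and 675 in KO and 664 and 388 in WT. miR-221-5p had 54.4 and 54.8 in KO and 27.1 and 18.2 in WT, counted with 92 and 70 reads in KO and 16 and 15 reads in WT. The log2 difference of miR-221-5p was 1.26 (95% interval -0.01 to 2.53, unadjusted p = 0.052, adjusted p = 0.582 in limma). Those of miR-221-3p and miR-222-3p were 0.38 and 0.58 (limma adjusted p = 0.754 and 0.623). No small RNA was called at day 0 by limma (0% of 342, 27 at an unadjusted p under 0.05), edgeR, DESeq2 or limma-voom.

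At day 4 the libraries of the genotypes overlapped for all 3 miRNAs. miR-221-3p had 533 and 259 deposited normalised reads in KO and 465 and 328 in WT. miR-221-5p had 60.1 and 13.2 in KO and 22.3 and 13.2 in WT. miR-222-3p had 531 and 349 in KO and 398 and 611 in WT. In KO the higher library was replicate 2 for all 3, the library with the low miR-92b-3p share; its part in these values was not tested. The log2 differences were -0.07, 0.70 and -0.20 for miR-221-3p, miR-221-5p and miR-222-3p, each with a limma adjusted p of 0.997, and 0.294% of small RNAs were called. Without KO replicate 2 the difference of miR-221-5p was -0.36.

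At day 7 only miR-222-3p was separated by genotype (43.9% of small RNAs were), with 723 and 636 deposited normalised reads in KO and 526 and 569 in WT. Its log2 difference of 0.31 did not pass (limma adjusted p = 0.868). miR-221-3p had 583 and 358 in KO and 511 and 574 in WT, and miR-221-5p had 43.3 and 15.9 in KO and 27.3 and 24.5 in WT. For both, the WT libraries lay inside the range of the KO libraries. Their log2 differences were -0.24 and 0.02 (limma adjusted p = 0.894 and 0.988), and 0.623% of small RNAs were called.

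At day 14 the arms of miR-221 and miR-222-3p stood on opposite sides of WT. miR-221-3p had 268 and 228 deposited normalised reads in KO and 345 and 356 in WT, a log2 difference of -0.50 (95% interval -1.24 to 0.24, limma adjusted p = 0.45). miR-221-5p had 14.6 and 11.1 in KO and 19.6 and 15.9 in WT, a log2 difference of -0.44 (limma adjusted p = 0.714). miR-222-3p had 477 and 513 in KO and 396 and 278 in WT, a log2 difference of 0.58 (95% interval -0.14 to 1.29, limma adjusted p = 0.357). The groups did not overlap for any of the 3, nor for 66.4% of all small RNAs tested that day. None of the 3 passed, and 3.95% of small RNAs were called (12, or 25 with the replicate block). Averaged over the 4 days, the log2 differences were -0.11 for miR-221-3p, 0.38 for miR-221-5p and 0.32 for miR-222-3p (limma adjusted p = 0.766, 0.547 and 0.35). Over all small RNAs 2.57% were called (7, or 18 with the replicate block). The block takes out differences between replicates of a genotype, which are part of the error between genotypes. The larger counts with the block may therefore be too high.

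The authors' deposited table of comparisons gave log2 ratios of KO over WT for miR-221-3p of 0.34, 0, -0.20 and -0.49 at days 0, 4, 7 and 14. The authors' deposited table gave 1.06, 0.76, 0.13 and -0.39 for miR-221-5p and 0.50, -0.17, 0.30 and 0.53 for miR-222-3p. In the authors' deposited table the lowest adjusted p of the 3 miRNAs was 0.291, for miR-222-3p at day 14.

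**Figure D3:**
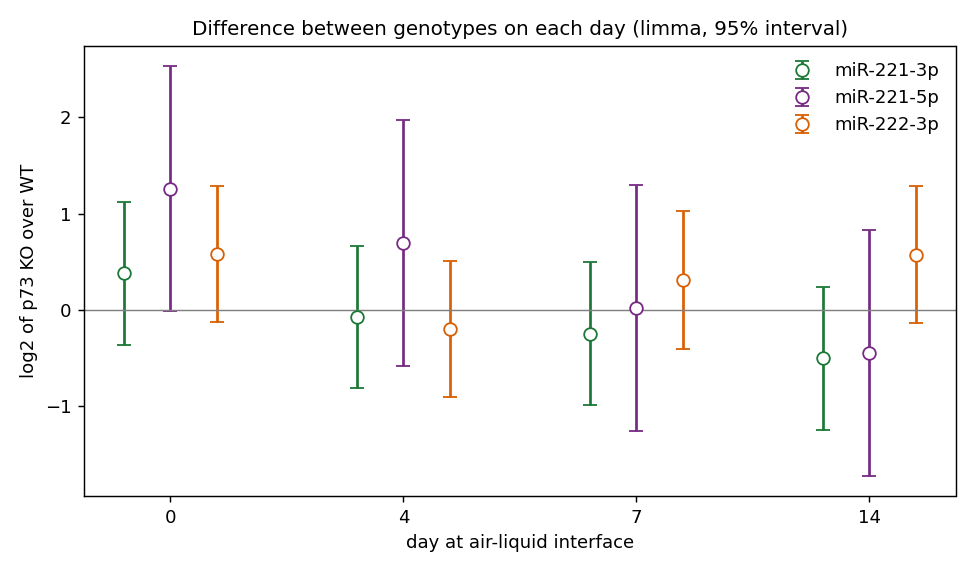
log2 ratio of p73 KO over WT at days 0, 4, 7 and 14 for the 3 miRNAs, with the 95% interval of limma (n = 2 libraries per group); open points did not pass an adjusted p of 0.05. All 12 points are open, miR-221-5p at day 0 (1.26) is the highest, and at day 14 miR-222-3p (0.58) lies above 0 and miR-221-3p (-0.50) and miR-221-5p (-0.44) below.

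Ratios between the miRNAs within 1 library need no scaling between libraries. For the 2 miRNAs that share a seed, this ratio was higher in KO than in WT libraries at the later days, without passing the test over all days. In KO libraries miR-222-3p had 1.46 and 1.14 reads per miR-221-3p read at the start, 0.995 and 1.35 at day 4, 1.24 and 1.77 at day 7, then 1.78 and 2.25 by day 14. In WT libraries the ratios were 1.30 and 0.961 at the start, 0.856 and 1.86 at day 4, 1.03 and 0.99 at day 7, then 1.15 and 0.781 by day 14. The KO libraries were above the WT libraries at days 7 and 14 and overlapped them at days 0 and 4. Of single small RNAs tested, 43.9% were separated by genotype in either direction at day 7 and 66.4% at day 14. No such share was computed for ratios of other miRNAs, so these positions are a description only.

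At day 14 miR-222-3p made up 64% (95% Wilson interval 59.9 to 67.9%) and 69.2% (66 to 72.3%) of the reads of the pair in KO libraries. It made up 53.4% (51 to 55.8%) and 43.9% (38.8 to 49%) in WT libraries. These intervals cover counting error only, since reads copied by PCR and not tagged by molecule are not independent. The log2 difference between genotypes in this ratio was 0.20, -0.12, 0.55 and 1.08 at days 0, 4, 7 and 14. Over all days it averaged 0.43 (exact two-sided permutation test of genotype within days, p = 0.0741, adjusted over 4 tests p = 0.148), which did not pass. A trend of the ratio with day within genotype did not pass either (log2 slope 0.06 per step between successive days, exact permutation test p = 0.5, adjusted p = 0.5).

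For the 2 arms of the miR-221 hairpin, the ratio of 5′ to 3′ arm was higher in KO than in WT libraries at days 0 and 4. At day 4 this was clear only in KO replicate 2. The difference over all days again did not pass after adjustment. Reads of miR-221-5p per read of miR-221-3p were 0.0924 and 0.0921 in KO and 0.053 and 0.045 in WT at day 0, and 0.113 and 0.051 in KO and 0.048 and 0.0402 in WT at day 4. At day 7 they were 0.0742 and 0.0443 in KO and 0.0535 and 0.0428 in WT, and at day 14 0.0545 and 0.0486 in KO and 0.0567 and 0.0448 in WT. KO libraries were above WT libraries at days 0 and 4 and overlapped them at days 7 and 14. The WT ratio stayed between 0.0402 and 0.0567 throughout. At day 4 KO replicate 3 (13 reads of miR-221-5p) lay just above WT replicate 2 (25 reads). There miR-221-5p made up 4.85% (Wilson interval 2.86 to 8.12%) and 4.58% (3.12 to 6.67%) of the reads of both arms. Only KO replicate 2 stood clear that day, at 10.1% (8.37 to 12.2%). The WT values of day 0 rest on 16 and 15 reads, and the Wilson intervals of the genotypes overlapped that day. The log2 difference was 0.92, 0.79, 0.26 and 0.03 in the order of days and averaged 0.50 (exact two-sided permutation test, p = 0.0278, adjusted over 4 tests p = 0.111). After the mean of each replicate number was removed within genotype, the adjusted p was 0.0309 in the same permutation test; the means were taken with the true genotypes, so this p may be too small. The slope with day was -0.13 (exact permutation test p = 0.123, adjusted p = 0.164). The smallest exact p for genotype was 0.00154 when libraries are taken as independent from day to day. Replicate differences correlated across days within genotype, as described below. The exact p for genotype, for both ratios and in their repeats, may therefore be too small.

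**Figure D4:**
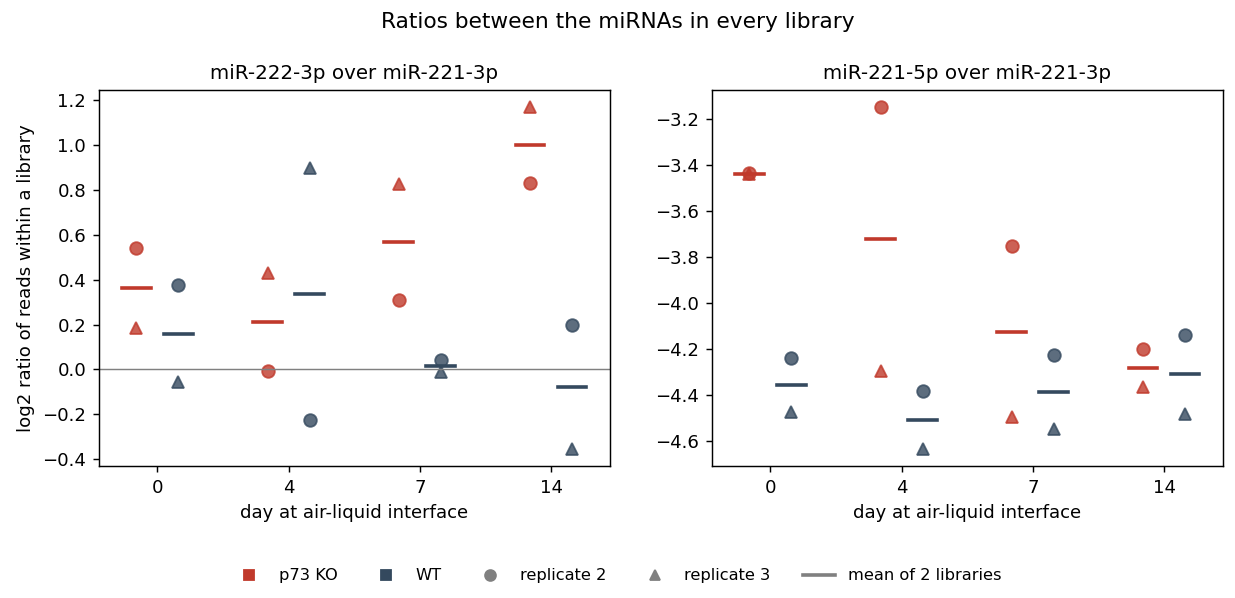
log2 ratio of reads of miR-222-3p over miR-221-3p (left) and of miR-221-5p over miR-221-3p (right) in each library at days 0, 4, 7 and 14, with p73 KO left of WT; circles are replicate 2, triangles replicate 3 and lines the mean of 2. On the left the KO means lie 0.55 and 1.08 above WT at days 7 and 14. On the right the KO means lie 0.92 and 0.79 above WT at days 0 and 4. At day 4 on the right, KO replicate 3 lies close to WT replicate 2.

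Because miR-221-3p and miR-222-3p read the same seed, their summed level was also described. The sum was 1555 ± 142 day-aligned reads in KO cultures at the start, 956 ± 368 at day 4, 874 ± 167 at day 7 and 715 ± 3.13 by day 14 (SD, n = 2 each). In WT cultures it was 1126 ± 310, 1030 ± 61.2, 828 ± 56.7 and 661 ± 72.5 on the same days. The KO sums lay above the WT sums at day 0, and the libraries overlapped at days 4 and 7. At day 14 the KO sums were 717 and 713 and the WT sums 713 and 610. These sums were not tested. As a share of all reads, the pair took 0.122% in KO and 0.0872% in WT at day 14, and 0.356% in KO and 0.303% in WT at day 0.

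The 8 groups were also ordered by their mean day-aligned level, as a description. Sorting puts groups with close means side by side, so overlap of neighbours does not show how far the groups differed. For miR-221-3p it ran KO day 0, WT day 0, WT day 4, KO day 4, WT day 7, KO day 7, WT day 14 and KO day 14. Libraries of neighbours overlapped except between KO and WT at day 0 and between WT and KO at day 14. For miR-221-5p it ran KO day 0, KO day 4, WT day 0, KO day 7, WT day 4, WT day 7, WT day 14 and KO day 14, and only the last 2 groups did not overlap. For miR-222-3p it ran KO day 0, WT day 0, WT day 4, KO day 7, KO day 4, KO day 14, WT day 7 and WT day 14. There KO and WT of day 0, KO of day 14 and WT of day 7, and WT of days 7 and 14 were separated. Of all small RNAs tested, 34.8% were separated between KO and WT at day 0 and 66.4% at day 14. No such share was computed for the other pairs, so their positions are a description only.

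The size of the difference between days depends on what the libraries are scaled to, as miR-92b-3p took up to 55.1% of a library. With shares of all reads (library totals), the log2 changes between days 14 and 0 were -1.93 for miR-221-3p, -2.68 for miR-221-5p and -1.30 for miR-222-3p in KO, and -1.66, -1.55 and -1.90 in WT, and limma called all of these. That scaling moved the median of all small RNAs to -0.35 in KO and -1.08 in WT, and its calls were 20 higher and 75 lower in KO and 5 higher and 131 lower in WT. With totals that leave out miR-92b-3p, the median was 0.58 in KO and -0.09 in WT, with 65 higher and 19 lower calls in KO. The log2 changes were then -0.98, -1.76 and -0.34 in KO and -0.65, -0.58 and -0.89 in WT. With no shift between days, the median was 0.31 in KO and 0.18 in WT, with 46 higher and 30 lower calls in KO and 39 higher and 14 lower in WT. All 3 miRNAs were lower at day 14 than at day 0 in both genotypes under every scaling tried, and miR-221-3p and miR-221-5p were called in KO under each.

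**Figure D5:**
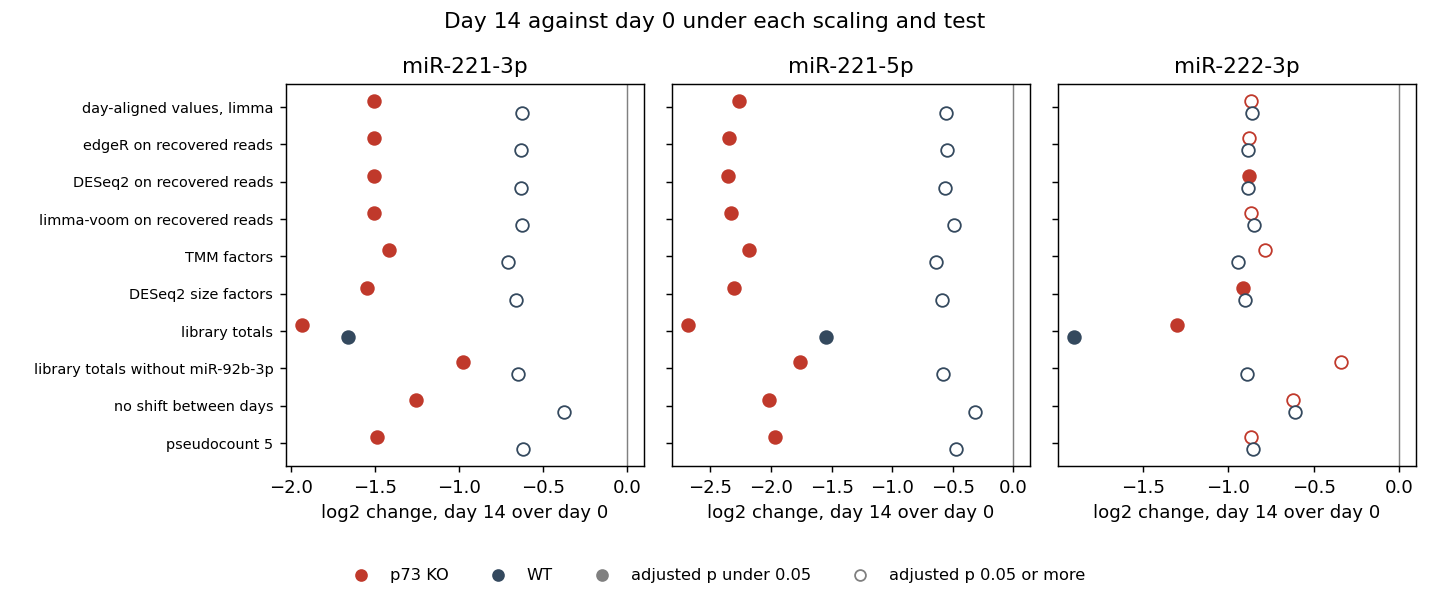
log2 change between days 14 and 0 for the 3 miRNAs in p73 KO (upper point of each row) and WT cultures under each scaling and test; filled points passed an adjusted p of 0.05. Every point lies below 0; miR-221-3p and miR-221-5p in KO are filled in each row, and the WT points are filled with library totals only.

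The 3′ arms are known to act on Cdkn1b (p27) and Cdkn1c (p57), and their messages hold the matching letters in this genome. The DNA letters ATGTAGC, which pair with the seed, were searched on the transcript strand of the longest annotated 3′ untranslated region of each gene (GENCODE). The sites below are the ones found, with the match in capitals.
Cdkn1b: ctctaaaagcattggATGTAGCattgcgca
Cdkn1c: tgggacctttcgttcATGTAGCaggaaccg
The match began at base 2357 of 3439 in Cdkn1b (chromosome 6) and at base 95 of 688 in Cdkn1c (chromosome 7). These letters occurred in 24.5% of 2108 windows of the Cdkn1b length, each the start of the longest 3′ untranslated region of a gene that has one this long, and in 4.49% of 12598 windows of the Cdkn1c length. Cdkn1a, which encodes the related inhibitor p21, held none in 1334 bases, where 9.56% of 8253 windows did. A match is a description of the letters, and mRNA or protein of these genes was not measured in these small RNA libraries.

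Other miRNAs reported, mainly in human cells, to act on p21, p27 or p57 were followed as a list of 10, of which 7 had a row and 3 could be tested at day 14. In KO cultures between days 14 and 0, 1 was higher and 2 were lower, where 29.4% of all small RNAs were called, with a median log2 change of -0.82 against 0.07 over all tested. The one that rose was miR-92b-3p, reported to act on p57 (log2 5.64, limma adjusted p = 1.54e-07). The 2 that fell were miR-25-3p, also reported for p57 (log2 -1.23, limma adjusted p = 0.00999), and miR-93-5p, reported for p21 (log2 -0.82, limma adjusted p = 0.0441). In WT cultures only miR-92b-3p was called among the 3 (log2 5.74, limma adjusted p = 6.06e-08), where 16.5% of all were called, and the median was -0.40 against -0.06 over all tested. None of the list was called between KO and WT at any day. In KO cultures miR-92b-3p and miR-221-3p, both reported for p57, were called in opposite directions.

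Other miRNAs encoded on the X chromosome, like the cluster, numbered 47 rows, of which 14 could be tested. In KO cultures between days 14 and 0, 1 of the 14 was higher and 4 were lower, where 29.4% of all small RNAs were called, and their median log2 change was -0.88 against 0.07 over all tested. In WT cultures 0 were higher and 2 lower, where 16.5% were called, with a median of -0.51 against -0.06. Counted in either direction, these shares between days were near the background. The medians of the list were below those over all tested in both genotypes, and this difference was not tested. Those lower in KO were miR-351-5p, miR-504-5p, miR-532-3p and miR-532-5p, with log2 changes of -2.00, -2.55, -1.21 and -1.92, and the one higher was miR-676-3p (1.32); limma adjusted p ran from 0.00286 to 0.0374. Between KO and WT averaged over days, 1 of the 14 was higher and 1 lower, where 2.57% of all small RNAs were called. The higher one was miR-351-5p (log2 1.23, limma adjusted p = 0.00257) and the lower one miR-672-5p (log2 -0.71, limma adjusted p = 0.0204). These rows were chosen by their chromosome; the members of the cluster itself are not among them.

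The cultures carried the markers of airway epithelium. Of 4 basal cell markers, all had a row, and their sum was almost all miR-205-5p. The summed day-aligned level was 14169 to 23392 in KO and 13096 to 18908 in WT at day 0, and 9100 to 10246 in KO and 7828 to 8096 in WT at day 14. Of the 3 tested between days 14 and 0, 1 was called in each genotype, lower in both. Over all small RNAs 29.4% were called in KO and 16.5% in WT. The log2 changes of the 3 ran from -1.27 to 0.32 in KO and from -1.55 to 0.48 in WT. miR-184-3p had no listed value after day 4. Of 5 multiciliated markers (miR-34 and miR-449 rows), all had a row, and their sum was 1124 to 1300 in KO and 1056 to 1200 in WT at day 0, and 9513 to 9816 in KO and 13025 to 14989 in WT at day 14. In KO this rise lay in miR-449a-5p and miR-449c-5p. KO miR-34c-5p was 1124 and 963 at day 0 and 1070 and 1181 at day 14. KO miR-34b-3p was 146 and 143, then 116 and 83.5. Of the 3 multiciliated markers tested between these days, 1 was higher in KO and 3 were higher in WT. The rates over all small RNAs were again 29.4% and 16.5%. Of the 4 tested between genotypes at day 14, 2 were lower in KO, where 3.95% of all small RNAs were called. Whether the mix of cell types has a part in the levels of miR-221 and miR-222 was not tested, and in bulk cultures fewer cells of a type and less RNA per cell cannot be told apart. The 5 general epithelial markers (miR-200 family) summed to 8040 and 9198 in KO and to 11939 and 12587 in WT at day 14. Most of each sum was miR-200b-3p. None of the 5 was called between genotypes that day, with log2 differences from -0.72 to 0.10. miR-429-3p stood slightly higher in KO, and 66.4% of all small RNAs tested were separated by genotype that day.

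Endothelial cells are rich in miR-221 and miR-222, and their markers were at most a few reads where listed. Both rows of miR-126a were listed at day 0 only, where their sum was 3.38 and 1.79 in KO and 1.93 and 0 in WT. Of 6 blood markers, 3 had a row, and they summed to at most 5.4 at day 0 and 3.76 at day 4 in any library. Of 6 mesenchymal markers, 4 had a row; they summed to 15.3 to 42.3 over days 0, 4 and 7, most of it miR-143-3p, while miR-145a-5p and miR-199a-3p were at 0 in several libraries. The part of such cells in the levels of miR-221 and miR-222 was not tested.

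The miRNAs that varied most like the members over the 16 libraries differed from member to member. Only miR-183-5p was among the closest to both arms of miR-221, and none was shared with miR-222-3p. Likeness was the Pearson correlation of the log2 day-aligned values with each of 162 miRNAs measured in all libraries, given as a description since all points share library and scaling. Closest to miR-221-3p were miR-100-5p (r = 0.916), miR-532-5p (0.911) and miR-183-5p (0.881). miR-100-5p averaged 8.47 ± 0.681 day-aligned reads in KO at day 14 and 202 ± 97 in KO at day 0 (SD, n = 2 each). Closest to miR-221-5p were miR-183-5p (0.908), miR-26b-5p (0.893) and miR-23b-3p (0.886). Closest to miR-222-3p were let-7i-5p (0.837), miR-125b-1-3p (0.835) and miR-130a-3p (0.826).

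Between the members, r was 0.906 for the arms of miR-221, 0.601 for miR-221-3p with miR-222-3p, and 0.646 for miR-221-5p with miR-222-3p. With library totals these became 0.932, 0.818 and 0.784, and miR-27b-3p replaced miR-183-5p among the 3 closest to miR-221-3p. let-7i-5p, the closest to miR-222-3p, averaged 1995 ± 30.3 day-aligned reads in KO and 1288 ± 20.3 in WT at day 14 (SD, n = 2 each).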

How the data were processed

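Small RNA was measured in 16 libraries of mouse tracheal epithelial cultures, 2 for each of 8 groups of genotype and day. Per the labels' protocols, RNA came from a column kit and libraries from a TruSeq RNA kit; per the submitters' processing notes, mm10 and DESeq2 were used. How reads were aligned and counted is not given in the sources used here. Although its header speaks of read counts, the deposited table holds a normalised signal made by the authors: 100% of low values in each library were whole multiples of 1 step (tolerance 0.0055), so reads could be recovered. The authors' deposited comparisons hold a log2 ratio of KO over WT and an adjusted p-value, per the file headers.

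5 predicted rows that repeat a named miRNA were left out, leaving 1264 rows. The authors normalised each day apart, so for comparisons of days a shift per day was subtracted from the log2 values. The shifts were -0.195, -0.194, 0.397 and 0.055 at days 0, 4, 7 and 14 (from 272 rows present throughout). limma 3.58.1 in R 4.3.3 was fitted to log2(value + 1) with a variance trend, over rows that reached 10 in 2 or more of the 4 libraries of each day compared. Adjusted p are Benjamini-Hochberg values over all rows tested, with a threshold of 0.05. edgeR 4.0.16, DESeq2 1.42.0 and limma-voom on the recovered reads, other scalings, filters, a replicate block and leaving out each library were alternatives. The test was also run on simulated counts of independent libraries with a fixed spread. That simulation lacked the correlation between replicates described below, so it cannot show how the p-values behave under it. The series' design text calls both libraries of a group independent biological replicates. The difference between replicates 2 and 3 correlated from day to day at 0.3 to 0.464 within KO (6 pairs of groups) and 0.107 to 0.274 within WT (6), and between genotypes at -0.245 to 0.174 (16). From these correlations, and from no label, replicate numbers were taken as pairs within genotype only.

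The 3 members are named in every comparison; similar miRNAs are the 3 with the highest correlation per member, and list members are given as counts with up to 4 examples of highest level, except those called, which were named after their values were seen. The members and lists were chosen with earlier results of these data known.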

Additional observations from a re-analysis of the deposited data

How the results depend on the processing

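All values here are log2 and were tested with limma unless another tool is named. The values of the 3 miRNAs kept their direction and their side of the threshold in 1416 of 1497 repeats; 55 changed sign, none of these called before or after, 22 passed only in the repeat and 4 no longer passed. The causes were not tested. With library totals, the change between days 7 and 0 passed for miR-221-3p and miR-222-3p in WT (-1.16 and -1.31) and for miR-221-3p, miR-221-5p and miR-222-3p in KO (-1.40, -2.02 and -1.19). With library totals it passed between days 14 and 0 for the same 3 in WT (-1.66, -1.55 and -1.90) and for miR-222-3p in KO (-1.30). miR-222-3p in KO between days 14 and 0 also passed in DESeq2 (-0.88), with DESeq2 size factors (-0.92) and with only the groups compared (-0.87). Over all alternatives for that value the adjusted p ran from 0.00426 to 0.409.

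Values that changed sign were not called as reported, nor in the repeat with the other sign. With library totals they were miR-221-3p between KO and WT at day 4 (0.0799), miR-221-5p in WT (-0.30) and miR-222-3p in KO (-0.25) between days 7 and 4, and the KO minus WT change of miR-222-3p at days 7 and 14 (0.12 and 0.60). With totals without miR-92b-3p they were miR-221-5p in WT between days 7 and 4 (-0.0476), miR-222-3p in KO between days 14 and 7 (0.15), and the KO minus WT change of miR-222-3p at days 7 and 14 (0.0912 and 0.55). With no shift between days, WT between days 7 and 0 gave 0.25, 0.21 and 0.11 for miR-221-3p, miR-221-5p and miR-222-3p, miR-221-3p and miR-222-3p in WT between days 7 and 4 gave 0.47 and 0.15, and miR-221-3p in KO between those days gave 0.30. miR-221-5p in WT between days 7 and 4 was -0.0804 in edgeR, -0.072 in DESeq2, -0.0871 in limma-voom, -0.00771 with DESeq2 size factors and -0.00455 with a pseudocount of 5. The KO minus WT change of miR-222-3p at day 14 was 0.00461 in edgeR, 0.00239 in DESeq2 and 0.16 with TMM factors, and miR-221-5p between KO and WT at day 7 was -0.12 in limma-voom.

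With the replicate number as a block within genotype, miR-221-3p (-0.96) and miR-221-5p (-1.59) passed in KO between days 7 and 0, miR-222-3p (-0.87) in KO between days 14 and 0, and the genotype difference in the ratio of miR-221-5p to miR-221-3p (0.50, exact permutation test, adjusted p = 0.0309). The block changed no other call of the 3 miRNAs or the ratios, and it called 103 small RNAs in KO and 62 in WT between days 14 and 0. The adjusted p of the ratio may be too small, as the replicate means were taken with the true genotypes.

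Leaving out 1 library gave these ranges, each with a repeat that changed sign or call. Between KO and WT they were -0.59 to 0.45 for miR-221-3p, -0.36 to 1.75 for miR-221-5p and -0.50 to 0.11 for miR-222-3p at day 4, -0.59 to 0.11 for miR-221-3p and -0.67 to 0.72 for miR-221-5p at day 7, and -0.24 to 0.0207 for miR-221-3p over all days. Against day 0 in WT they were -0.47 to 0.0311, -0.72 to 0.0038 and -0.43 to 0.34 at day 4 in the same order of miRNAs, and -1.25 to -0.48 for miR-222-3p at day 14. Against day 0 in KO they were -1.98 to 0.14 for miR-221-5p at day 4, -1.31 to -0.61 and -2.28 to -0.91 for miR-221-3p and miR-221-5p at day 7, and -1.62 to -1.39, -2.45 to -2.07 and -1.04 to -0.70 for the 3 at day 14. Between days 7 and 4 they were -0.37 to 0.13 and -0.36 to 0.36 for miR-221-3p and miR-221-5p in WT, and -0.81 to 0.23, -1.73 to 0.39 and -0.24 to 0.37 for the 3 in KO; between days 14 and 7 in KO they were -1.35 to 0.0216 for miR-221-5p. The KO minus WT change ran from -0.97 to 0.0689 for miR-221-3p and -1.62 to 0.49 for miR-221-5p at day 4, and for miR-222-3p from -0.66 to 0.11 at day 7 and -0.39 to 0.38 at day 14. The genotype difference ran from 0.29 to 0.57 in the ratio of miR-222-3p to miR-221-3p, passing without WT replicate 3 of day 4 (adjusted p = 0.0309, exact permutation test), and from 0.36 to 0.64 in that of miR-221-5p to miR-221-3p, passing without KO replicate 3 of day 7 (adjusted p = 0.037, exact permutation test).

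Counts of small RNAs called also moved by more than 1.5 times. Over all alternatives, left-out libraries included, they ran between days 14 and 0 from 26 to 103 in KO (82 as reported) and from 12 to 136 in WT (46), between days 7 and 0 from 9 to 70 in KO (27) and from 8 to 114 in WT (24), and between days 4 and 0 from 2 to 16 in KO (11) and from 3 to 21 in WT (7). Between KO and WT they ran from 0 to 45 at day 14 (12), 4 to 18 over all days (7) and 0 to 9 at day 0 (0); for the KO minus WT change from 0 to 14 at day 14 and 0 to 7 at day 7 (0 each). In every other comparison at most 4 were called. The 18 between KO and WT over all days came with the replicate block, which may call too many between genotypes. Depth limits miR-221-5p most: 8 to 25 reads stood behind its WT values at days 0 and 4.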
